A study of Caenorhabditis elegans with 6 samples.

Results

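The genes described here encode the cytochrome P450 enzymes (P450) and the UDP-glycosyltransferases (UGT) of the nematode Caenorhabditis elegans. They were chosen by gene name: each gene called cyp or ugt followed by a number, and the P450 gene daf-9, if it had a probe set annotated to it alone. This gave 138 of the 17118 genes measured, namely 74 P450 genes, daf-9 among them, and 64 UGT genes. For a gene with more than 1 probe set, the one with the highest mean over all arrays stood for it. In 24 of the 138 genes the name of the probe set marks possible matches to related genes. The RefSeq annotation of assembly WBcel235 lists 148 genes of these families. The other 10 (cyp-13A9, cyp-13A11, cyp-13A12, cyp-25A3, cyp-25A4, cyp-25A5, cyp-35D2, ugt-34, ugt-49 and ugt-65) were not analysed here by themselves. It annotates cyp-29A1, cyp-31A1 and cyp-34A3 as pseudogenes.

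All animals were wild-type N2 (Bristol) with no transgene, raised at 20 °C on DA837, a derivative of the bacterial strain OP50, after arrest as hatched L1 larvae without food. One group was active L3 larvae picked by hand at 32 hours after feeding. The other was larvae in L3 lethargus, the quiet state of the molt, picked at 37 hours because they neither moved nor fed. Each group had 3 pools of 200 animals, each hybridised to an Affymetrix C. elegans Genome Array after amplification of the RNA. The groups differ by 5 hours of age, by phase of the molt and by behaviour and feeding, which cannot be told apart here. P-values measure the spread between pools, and the labels do not say whether pools were raised on separate days.

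P450 enzymes are haem proteins that insert an oxygen atom into lipids, sterols and foreign compounds, with electrons from a reductase that is encoded in C. elegans by emb-8. UGT enzymes link a sugar, carried by a UDP-sugar, to small fat-soluble molecules, often ones that a P450 has oxidised, and so make them easier to excrete. In C. elegans many of these genes are expressed in the intestine and respond to foreign compounds. A few act on the animal's own lipids. DAF-9 carries out the last step in making dafachronic acids, the steroid hormones that bind the nuclear receptor DAF-12, and CYP-29A3 and CYP-33E2 make eicosanoids from polyunsaturated fatty acids. CYP-31A2 and CYP-31A3 are needed for the lipid layer of the eggshell.

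Values are log2 expression levels. As a guide to background, the 27 control probe sets for transcripts of Bacillus subtilis gave values of 2.42 to 5.73, and a mean below 5.73 is described as within the control range. Array medians lay between 7.09 and 7.19. L3 replicate 3 stood apart. The first principal component (50.1% of the variance) placed it at 0.824, L3 replicates 1 and 2 at -47.7 and -40.9, and lethargus between 19.5 and 39.1. The sperm gene list, 16 of 18 genes measured, had a median level of 7.55 on that array and 5.1 to 6.55 on the others. Each main count is therefore also given without it. That array was singled out from these same data, where it lay towards lethargus. Leaving it out widens the difference of any gene in which it does so. Calls made only without it are thus no separate support. Of 11 intestinal marker genes measured of 12, none was called, and their median level on an array lay between 11.36 and 11.63 in L3 and between 11.43 and 11.49 in lethargus. Among 10 epidermal marker genes the cuticle collagen gene rol-6 was called lower by limma (log2 change -1.05, adjusted p = 0.0488). The list's median level was 9.61, 8.98 and 8.50 in L3 and 8.40, 8.08 and 8.42 in lethargus. The list had a median change of -0.59, with 6 negative and 4 positive changes, that of nhr-25 being 0.00. At an unadjusted p under 0.05 by limma, 5 genes (50%) were lower and 1 (10%) higher, against 5.06% and 5.74% of all genes. Without overlap between the arrays, 4 (40%) were lower, against 6.44% of all genes: rol-6, che-14 (-1.29), dpy-7 (-1.12) and sqt-3 (-0.47). Only elt-1 (10%) was higher without overlap (change 0.45, limma, adjusted p = 0.316), against 8.18% of all genes. The part of these lists in the results below was not tested. In whole animals, fewer cells of a type and less RNA per cell cannot be told apart.

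Only cyp-34A1 and cyp-34A7 of the 138 genes were called higher in lethargus by limma, at a p of 0.05 or less after Benjamini-Hochberg adjustment over all 22548 probe sets tested, and no member was called lower. These 2 genes are 1.45% of the members. Over all probe sets 0.754% were called higher and 0.213% lower, and over all genes 0.783% and 0.251%. The median log2 change of the members (lethargus minus L3) was 0.03, against 0.02 over all genes. It was 0.02 for the P450 genes and 0.08 for the UGT genes. Changes ran from -1.70 to 1.42, with 81 positive and 57 negative. A change of at least 1 on the log2 scale, in either direction, was seen in 4 members or 2.90% (cyp-32A1, cyp-34A1, ugt-43 and cyp-42A1), against 3.51% of all genes.

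Below the threshold of the adjusted test, the members were more often higher than lower in lethargus. At an unadjusted p under 0.05, 21 members (15.2%) were higher and 10 (7.25%) lower, against 5.74% and 5.06% of all genes. The UGT genes gave 13 higher (20.3%) and 3 lower (4.69%), and the P450 genes 8 higher (10.8%) and 7 lower (9.46%). Without any overlap between the arrays of the groups, 17 members (12.3%) were higher and 9 (6.52%) lower, against 8.18% and 6.44% of all genes, so that the share of lower members was near the background. Part of this lean came from genes within the control range. Among the 41 P450 genes above it in both groups, 6 (14.6%) were higher and 7 (17.1%) lower at an unadjusted p under 0.05. The 50 UGT genes above it gave 8 higher (16%) and 3 lower (6%). Without overlap, 6 of these P450 genes (14.6%) were higher and 5 (12.2%) lower. Of these UGT genes, 5 (10%) were higher and 4 (8%) lower without overlap. The shares over all genes given above include genes within the control range, so the 2 sets are not alike.

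Both group means lay within the control range for 43 members, 31 P450 genes and 12 UGT genes, and 1 of the 2 means did so for cyp-25A6, cyp-37B1, ugt-33 and ugt-55. This left 41 P450 genes and 50 UGT genes above it in both groups. Among those 91, the SE of the change ranged from 0.11 to 0.54 with a median of 0.19. For 64 of the 91 the 95% confidence interval of the change lay between -1 and 1.

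**Figure D1:**
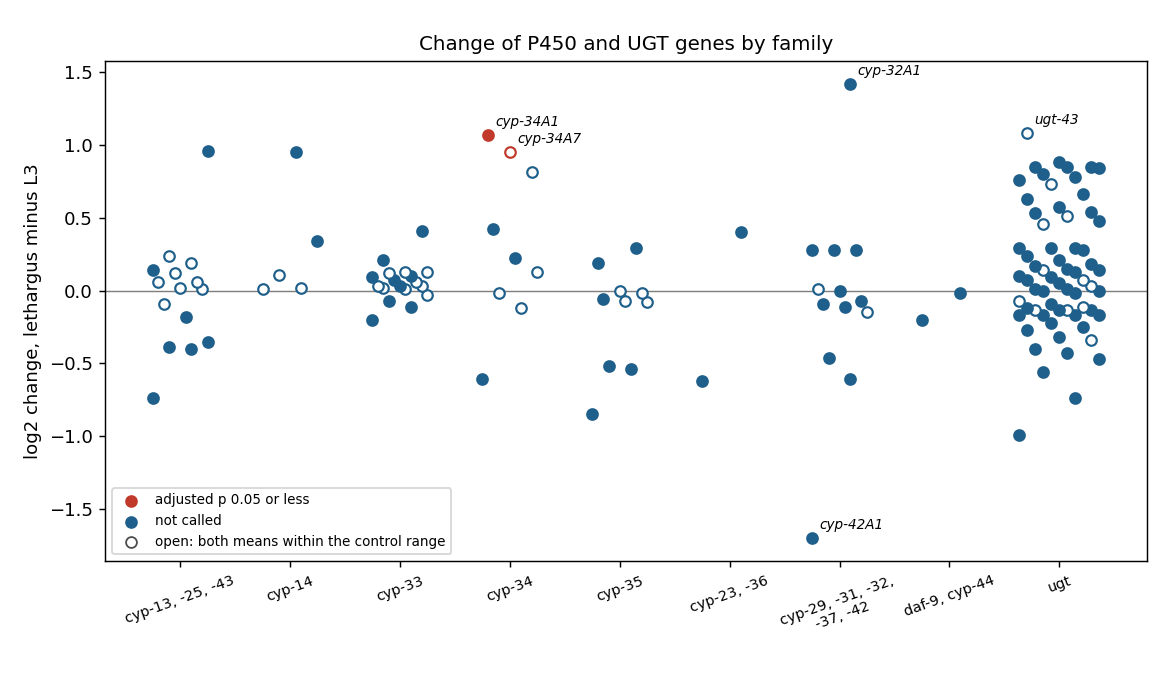
The vertical axis is the log2 change of each of the 138 genes, lethargus minus L3, and the horizontal axis groups them by family. Open circles have both means within the control range and red marks the 2 called genes, cyp-34A1 and cyp-34A7. The 18 cyp-33 genes lie between -0.20 and 0.41, while cyp-32A1 at 1.42 and cyp-42A1 at -1.70 are the highest and lowest of all.

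The 44 P450 genes of the families cyp-14, cyp-23 and cyp-33 to cyp-36, which resemble the vertebrate CYP2 enzymes of foreign-compound metabolism, include both called genes. cyp-34A1 had log2 levels of 6.46, 6.58 and 6.80 in L3 and 7.57, 7.82 and 7.67 in lethargus. The groups did not overlap, and the lowest lethargus array was above the highest L3 array by more than the range within either group. The mean rose from 6.61 ± 0.17 to 7.68 ± 0.12 (SD, n = 3 each), a log2 change of 1.07 (SE 0.14, limma, adjusted p = 0.0179) or 2.10-fold.

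cyp-34A7 was close to background. Its levels were 3.75, 3.89 and 3.73 in L3 and 4.70, 4.82 and 4.71 in lethargus. All of them lie within the control range, so no fold is given for its log2 change of 0.95 (SE 0.12, limma, adjusted p = 0.0136). Leaving out L3 replicate 3 kept both calls (adjusted p = 0.00607 for cyp-34A1 and 0.013 for cyp-34A7). Leaving out any other single array ended both, with adjusted p of 0.071 to 0.121 for cyp-34A1 and 0.0587 to 0.0845 for cyp-34A7.

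The other cyp-34A genes did not share one direction. cyp-34A8 had 9.50, 9.59 and 9.96 in L3 and 10.21, 10.01 and 10.08 in lethargus, a log2 change of 0.42 (SE 0.16, limma, adjusted p = 0.385). cyp-34A9, also known as dod-16 and named as a gene downstream of the insulin pathway factor DAF-16, had 8.93, 8.38 and 8.60 in L3 and 7.92, 7.91 and 8.24 in lethargus, a change of -0.61 (SE 0.18, adjusted p = 0.226). In both genes the groups did not overlap, cyp-34A8 with lethargus above and cyp-34A9 with lethargus below. Neither difference was called. cyp-34A2 had 4.32, 4.65 and 4.91 in L3 and 5.76, 5.90 and 4.65 in lethargus, where the third lethargus array lay among the L3 arrays (change 0.81, SE 0.33, adjusted p = 0.451). Of the 9 cyp-34A genes 6 had positive and 3 negative changes, and 5 had both means within the control range.

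The cyp-35 genes, several of which are induced by foreign compounds and affect fat stores, had no called member among the 10 measured. Of these, 4 lay within the control range in both groups, with changes between -0.08 and 0.00. The changes of the other 6 ran from -0.85 to 0.29, with 4 negative. cyp-35A2 had 10.57, 10.21 and 10.14 in L3 and 10.08, 9.58 and 9.70 in lethargus, with no overlap (change -0.52, SE 0.18, limma, adjusted p = 0.345). cyp-35A5, singled out after its values were seen, had 8.30, 7.41 and 6.82 in L3 and 7.0, 6.42 and 6.54 in lethargus, and the third L3 array fell among the lethargus arrays (change -0.85, SE 0.36, adjusted p = 0.459). cyp-35B1, also known as dod-13, had means of 4.73 ± 0.32 and 4.66 ± 0.31 (SD, n = 3 each), both within the control range. The cyp-35D1 change was -0.54 and the cyp-35C1 change 0.29, with adjusted p of 0.694 and 0.883.

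The 18 cyp-33 genes had changes from -0.20 to 0.41, with 9 of them within the control range and none called. cyp-33E2, an enzyme of eicosanoid synthesis that acts in the pharynx, had 8.22, 8.37 and 8.65 in L3 and 8.61, 8.45 and 8.47 in lethargus. Its change of 0.10 had a 95% interval of -0.25 to 0.44 (limma, adjusted p = 0.938). cyp-33C3 was the only one of the 18 whose arrays did not overlap, with 6.04, 6.01 and 6.26 in L3 and 6.34, 6.41 and 6.76 in lethargus (change 0.41, adjusted p = 0.400).

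The 5 cyp-14 genes had changes from 0.01 to 0.95, the highest in cyp-14A5. Its levels were 8.03, 8.32 and 8.88 in L3 and 9.72, 9.27 and 9.07 in lethargus. The groups did not overlap, but the highest L3 array and the lowest lethargus array were close (change 0.95, SE 0.26, limma, adjusted p = 0.191). Without L3 replicate 3, the highest of the L3 arrays, the change was 1.18 and passed the threshold (adjusted p = 0.0237). The probe set of cyp-14A5 is one of those that can match related genes. cyp-36A1, which acts in the hypoxia response and in behaviour, had a change of 0.40 (adjusted p = 0.601), and cyp-23A1 one of -0.62 (adjusted p = 0.490); both were chosen after their values were seen, as the lone measured genes of their families.

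In the 15 genes of the families cyp-13, cyp-25 and cyp-43, which resemble vertebrate CYP3A enzymes, none was called and 8 lay within the control range. cyp-13A2 had 6.80, 6.34 and 7.19 in L3 and 8.28, 7.70 and 7.23 in lethargus. Here the third arrays of the groups nearly met, and the change was 0.96 (SE 0.31, limma, adjusted p = 0.288). cyp-25A2 had nearly the same level on all L3 arrays, 10.36, 10.32 and 10.33, and 9.31, 9.81 and 9.68 in lethargus. This difference of -0.74 (SE 0.16, adjusted p = 0.0989) did not overlap between groups and was not called. The changes of cyp-25A1 and cyp-25A6 were -0.39 and -0.40, with adjusted p of 0.728 and 0.508. cyp-13A7, which responds to the drug rifampicin, had means of 4.99 ± 0.21 and 5.05 ± 0.45 (SD, n = 3 each), within the control range. cyp-13A1, also within it, had no overlap between the groups, at 3.37 ± 0.07 and 3.61 ± 0.22.

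The 13 genes of the families cyp-29, cyp-31, cyp-32, cyp-37 and cyp-42, which resemble the fatty-acid hydroxylases of the CYP4 group, held both the largest positive and the largest negative change of all members. cyp-32A1 had 6.84, 6.95 and 7.82 in L3 and 8.84, 8.22 and 8.80 in lethargus, with no overlap and with L3 replicate 3 closest to the lethargus arrays. The change was 1.42 (SE 0.29, limma, adjusted p = 0.0934), or 1.72 and called without that array (adjusted p = 0.00496). A second cyp-32A1 probe set, not marked as matching related genes as the first is, gave 1.08 (adjusted p = 0.131, and 0.00787 without L3 replicate 3).

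cyp-42A1 had 9.18, 9.07 and 7.48 in L3 and 6.72, 6.28 and 7.64 in lethargus. L3 replicate 3 and lethargus replicate 3 lay between the other arrays of both groups and overlapped. The mean was 8.58 ± 0.95 in L3 and 6.88 ± 0.70 in lethargus (SD, n = 3 each), a difference of -1.70 (SE 0.51, limma, adjusted p = 0.254). Without L3 replicate 3 it was -2.25 (adjusted p = 0.0124). Its second probe set, likewise unmarked, had 8.98, 8.91 and 7.52 in L3 and 6.62, 6.45 and 7.49 in lethargus. There the third arrays of the groups did not overlap but lay close together, and the change was -1.62 (adjusted p = 0.191, and 0.00788 without L3 replicate 3).

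cyp-37A1 had 10.44, 10.50 and 10.21 in L3 and 9.79, 9.75 and 9.77 in lethargus. The lethargus arrays were within 0.04 of each other and all below L3, with a change of -0.61 (SE 0.13, limma, adjusted p = 0.0946; -0.70 and 0.0338 without L3 replicate 3); its probe set can match related genes. cyp-29A2 had 11.12, 11.03 and 10.95 in L3 and 10.47, 10.47 and 10.77 in lethargus, without overlap (change -0.46, SE 0.14, adjusted p = 0.235). The eicosanoid gene cyp-29A3 overlapped fully, at 9.08, 9.32 and 8.64 against 8.55, 8.75 and 9.54 (change -0.07, SE 0.29, adjusted p = 0.986). The eggshell genes cyp-31A2 and cyp-31A3 had changes of 0.00 (SE 0.12) and 0.28 (SE 0.25), with adjusted p of 0.998 and 0.865. The probe set of cyp-31A2 can match related genes, so its value may not be that of cyp-31A2 alone. cyp-37B1 had a change of 0.28 (adjusted p = 0.811) and an L3 mean within the control range.

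**Figure D2:**
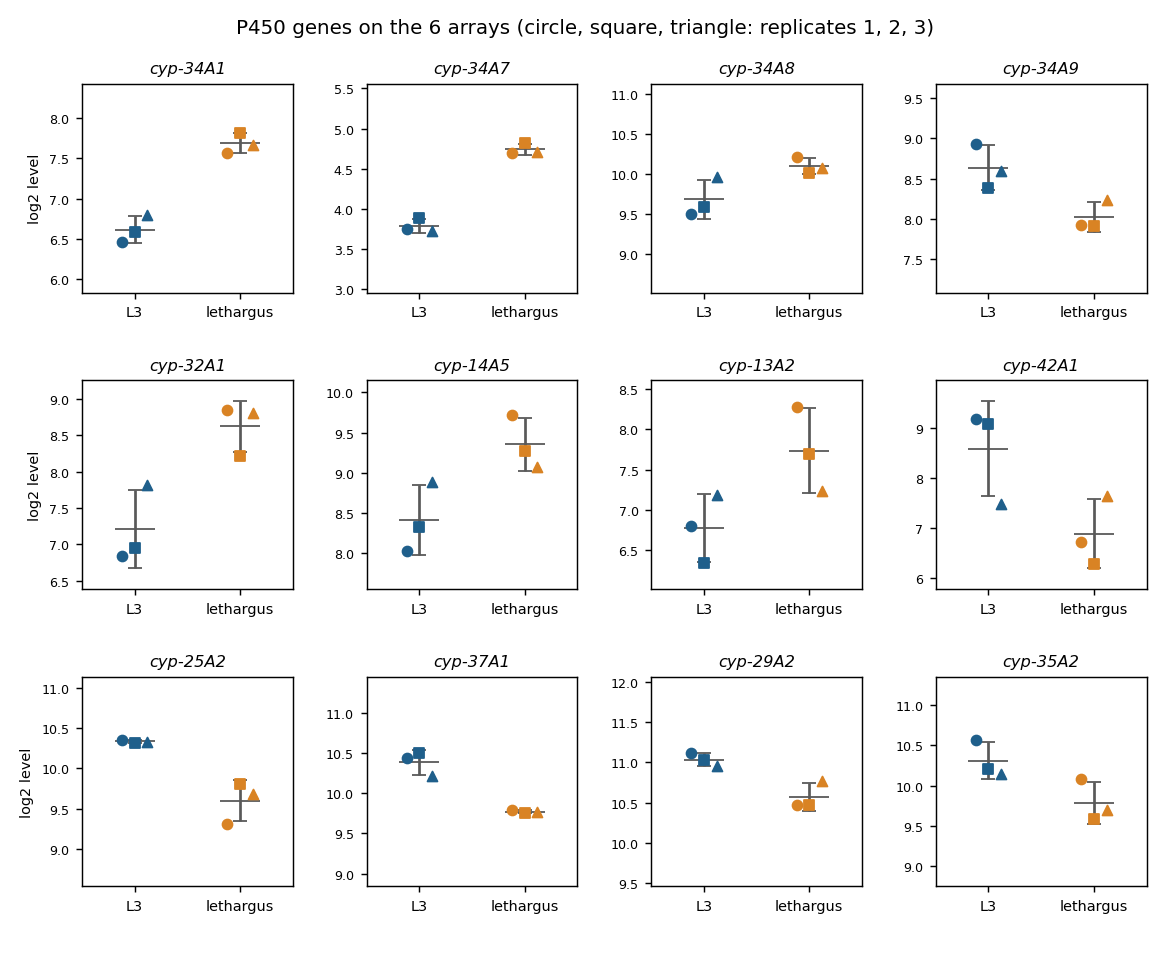
Each panel plots the log2 level of 1 P450 gene on the 3 L3 and 3 lethargus arrays, with the bar at the mean and whiskers of 1 SD; axes differ between panels and do not start at 0. In cyp-34A1 and cyp-34A7 the groups are apart by more than their spread, while in cyp-32A1, cyp-14A5 and cyp-42A1 the triangle of L3 replicate 3 lies towards the lethargus arrays.

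The steroid hormone gene daf-9 was level between the groups. It had 8.22, 8.16 and 8.09 in L3 and 8.10, 8.16 and 8.14 in lethargus. The change was -0.02 with a 95% interval of -0.29 to 0.24 (limma, adjusted p = 0.987), and over the alternatives the adjusted p ran from 0.944 to 1. daf-9 is known to be expressed in the XXX neuroendocrine cells and in the epidermis. The 4 marker genes of XXX cells were all within the control range. cyp-44A1, the mitochondrial P450, had 7.85, 8.03 and 8.46 in L3 and 8.03, 7.67 and 8.03 in lethargus (change -0.20, 95% interval -0.65 to 0.25, adjusted p = 0.874).

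Of 16 measured genes of the dafachronic acid pathway, out of 17 listed, none was called, and 7 were within the control range. dhs-16, a hydroxysteroid dehydrogenase that acts before DAF-9, had 7.6, 7.05 and 6.70 in L3 and 5.90, 6.32 and 6.11 in lethargus. All lethargus arrays were lower, and the change of -1.0 (SE 0.24, limma, adjusted p = 0.135) passed the threshold without L3 replicate 3 at -1.21 (adjusted p = 0.0196). strm-1, a sterol methyltransferase that diverts sterols from the hormone, had 7.48, 7.27 and 7.32 in L3 and 5.74, 6.81 and 6.75 in lethargus (change -0.92, SE 0.28, adjusted p = 0.261). The change of daf-36, the Rieske oxygenase of the first step, was 0.04 (SE 0.22, adjusted p = 0.989). That of the receptor gene daf-12 was -0.09 (SE 0.16, adjusted p = 0.951), that of the nuclear receptor gene nhr-8 -0.05 (SE 0.14, adjusted p = 0.976), and hsd-1 was within the control range.

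**Figure D3:**
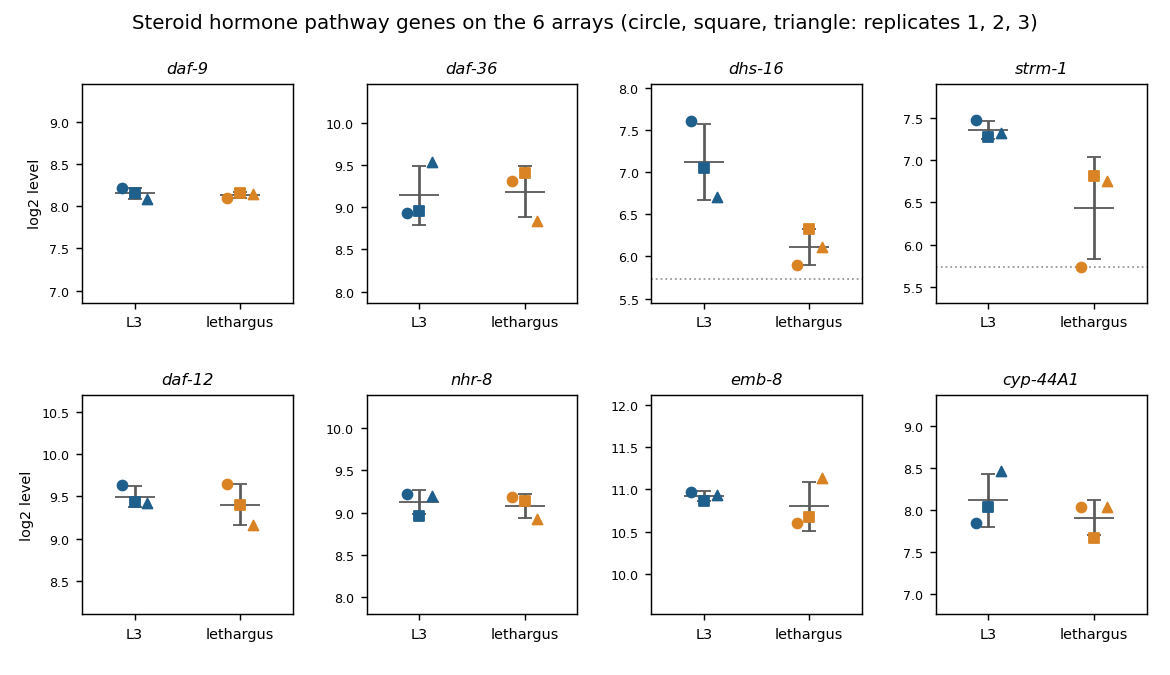
Log2 levels of 8 genes, daf-9, cyp-44A1, the reductase gene emb-8 and genes of the steroid hormone pathway, are plotted for each array, with the mean and 1 SD; the dotted line is the highest control value, 5.73. daf-9 lies between 8.09 and 8.22 on all 6 arrays, and in dhs-16 and strm-1 all lethargus arrays are below all L3 arrays.

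Genes that supply or regulate these enzymes were mostly not called. Over the 6 pathway lists together, 70 genes were measured, of which sqv-1 (1.43%) was called higher and none lower, against 0.783% and 0.251% of all genes. At an unadjusted p under 0.05, 4 were higher and 8 lower (5.71% and 11.4%), against 5.74% and 5.06% of all genes. The share of higher ones was thus at the background and that of lower ones above it. Without overlap, 8 (11.4%) were higher and 9 (12.9%) lower, against 8.18% and 6.44% of all genes. The reductase gene emb-8 had a change of -0.12 (SE 0.16, limma, adjusted p = 0.929). Of the 9 genes measured of 10 for electron and haem supply, none was called, and the smallest p was that of the haem transporter gene hrg-4 (change -0.19, adjusted p = 0.811). None of the 11 genes measured of 12 regulators of the response to foreign compounds was called, and the smallest p there was that of the nuclear receptor gene nhr-114, with 9.64, 9.42 and 9.43 in L3 and 8.69, 9.11 and 8.59 in lethargus (change -0.70, SE 0.17, adjusted p = 0.144).

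sqv-1 encodes the enzyme that makes UDP-xylose from UDP-glucuronic acid, a UDP-sugar. It had 9.01, 8.83 and 8.98 in L3 and 9.74, 9.58 and 9.66 in lethargus, a change of 0.72 (SE 0.12, limma, adjusted p = 0.0483) that lay just inside the threshold. The adjusted p ran from 0.03 to 0.234 over the alternatives, and its probe set can match related genes. The other 8 of 9 measured UDP-sugar genes, out of 10 listed, were not called. sqv-4, which makes UDP-glucuronic acid, had a change of -0.50 (adjusted p = 0.302), and the transporter gene sqv-7 one of -0.55 (adjusted p = 0.387); both were chosen after their values were seen.

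None of the 12 genes of polyunsaturated fatty acid and eicosanoid metabolism was called, nor any of the 14 regulators of sterol and lipid metabolism. ceeh-1, an epoxide hydrolase that opens the epoxides P450 enzymes make from fatty acids, had 10.06, 10.30 and 11.25 in L3 and 11.46, 11.50 and 11.48 in lethargus. The lethargus arrays nearly coincided and L3 replicate 3 lay close to them, with a change of 0.95 (SE 0.29, limma, adjusted p = 0.258) and of 1.31 without that array (adjusted p = 0.00379). The fatty acid synthase gene fasn-1 had a change of -0.39 (SE 0.14, adjusted p = 0.360).

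No UGT gene was called on the 6 arrays, while 9 of the 64 (14.1%) were higher in lethargus without overlap and 4 (6.25%) were lower, against 8.18% and 6.44% of all genes. The share of lower UGT genes was thus near the background. Of the 50 UGT genes above the control range in both groups, 5 (10%) were higher without overlap and 4 (8%) lower. ugt-64 had 9.22, 9.26 and 9.60 in L3 and 10.04, 9.97 and 10.34 in lethargus. ugt-47 had 9.86, 10.10 and 10.52 in L3 and 10.92, 10.82 and 11.09 in lethargus, and ugt-29 had 7.11, 7.18 and 7.75 in L3 and 8.35, 8.15 and 8.05 in lethargus. In all 3 genes L3 replicate 3 was the L3 array nearest to lethargus. The changes were 0.76 (SE 0.16) for ugt-64, 0.78 (SE 0.19) for ugt-47 and 0.84 (SE 0.20) for ugt-29, with adjusted p of 0.103, 0.139 and 0.130 by limma. Without L3 replicate 3 all of these passed the threshold, with changes of 0.88, 0.96 and 1.04 and adjusted p of 0.0264, 0.0172 and 0.011. Leaving out any other single array left them uncalled. The adjusted p was then 0.211 to 0.397 for ugt-64, 0.282 to 0.464 for ugt-47 and 0.207 to 0.464 for ugt-29. The probe sets of ugt-64 and ugt-29 can match related genes.

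ugt-41 had 7.11, 6.59 and 6.76 in L3 and 7.66, 7.29 and 8.04 in lethargus (change 0.85, SE 0.22, limma, adjusted p = 0.180). ugt-58 had 9.48, 9.82 and 10.06 in L3 and 10.33, 10.24 and 10.66 in lethargus (change 0.63, SE 0.19, adjusted p = 0.253). The ugt-58 probe set can match related genes. In ugt-41, unlike the 3 genes above, L3 replicate 3 lay between the other L3 arrays. ugt-55 and ugt-33 were within the control range in L3 and above it in lethargus, with means of 4.98 ± 0.32 and 5.86 ± 0.36 for ugt-55 and of 5.54 ± 0.52 and 6.39 ± 0.21 for ugt-33 (SD, n = 3 each). Their adjusted p-values were 0.179 and 0.267. ugt-43 and ugt-36, which were chosen after their values were seen, lay within the control range on all arrays and had changes of 1.08 and 0.73 (adjusted p = 0.0997 and 0.154).

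The UGT genes lower in lethargus without overlap were ugt-52, ugt-39, ugt-5 and ugt-50. ugt-52 had 6.52, 6.60 and 6.13 in L3 and 5.95, 5.78 and 5.86 in lethargus, just above the control range (change -0.56, SE 0.16, limma, adjusted p = 0.209; -0.70 and 0.0374 without L3 replicate 3). The changes of ugt-39, ugt-5 and ugt-50 were -0.47, -0.40 and -0.22, with adjusted p of 0.306, 0.448 and 0.573. The ugt-5 probe set can match related genes. ugt-50 had the tightest groups, at 10.01 ± 0.04 and 9.78 ± 0.02. Its other probe sets gave -0.28 and -0.31. The UGT gene with the most negative change, ugt-57, was chosen after its values were seen: it had 6.84, 6.15 and 7.95 in L3 and 5.48, 6.93 and 5.57 in lethargus, where the arrays of each group spread widely and overlapped (change -0.99, SE 0.53, adjusted p = 0.638).

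ugt-22, ugt-25 and ugt-62, which were named whatever their values, had changes of 0.24 (SE 0.18), 0.28 (SE 0.19) and 0.29 (SE 0.24), with adjusted p of 0.800, 0.761 and 0.826 by limma. The next genes overlapped between the groups: ugt-12 had means of 11.56 ± 0.17 and 11.43 ± 0.09, ugt-46 of 10.85 ± 0.12 and 10.83 ± 0.20, and ugt-23 of 10.61 ± 0.10 and 10.66 ± 0.09 (SD, n = 3 each). They were chosen after their values were seen. The probe sets of ugt-12 and ugt-46 can match related genes.

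Without L3 replicate 3, limma called 12 members higher (8.70%) and 3 lower (2.17%), against 2.66% and 2.59% of all genes. Leaving out any other single array instead left no member and no gene of the pathway lists called. Over all probe sets those settings called 75 to 90 higher and 0 to 1 lower. The UGT genes gave 8 higher (12.5%) and 1 lower, and the P450 genes 4 higher (5.41%) and 2 lower (2.70%). Beside those named so far, the called UGT genes were ugt-11, ugt-13, ugt-63, ugt-2 and ugt-44, which were chosen after their values were seen. In these 5 genes L3 replicate 3 lay 0.68 to 1.71 above the mean of the other L3 arrays. ugt-11 had 6.50 and 7.18 on L3 replicates 1 and 2, 8.38 on replicate 3, and 8.28, 8.33 and 8.0 in lethargus. Its change was 0.85 on all arrays (SE 0.43, adjusted p = 0.594) and 1.36 without that array (adjusted p = 0.0159). ugt-13 had 9.49, 9.81 and then 11.36 in L3, above its lethargus levels of 10.70, 10.77 and 10.64 (change 0.48, adjusted p = 0.866; 1.05 and 0.0114 without the array).

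ugt-63 had 9.26, 9.06 and 10.51 in L3 and 10.57, 9.93 and 10.30 in lethargus (change 0.66, limma, adjusted p = 0.678; 1.11 and 0.0256 without L3 replicate 3). ugt-2 had 9.03, 9.03 and 9.89 in L3 and 9.89, 9.98 and 9.66 in lethargus (0.53 and 0.546; 0.82 and 0.029). ugt-44 had 8.20, 8.38 and 8.97 in L3 and 8.95, 9.52 and 9.48 in lethargus (0.80 and 0.260; 1.02 and 0.0342). In each of these 5 genes L3 replicate 3 reached the range of the lethargus arrays or, in ugt-11 and ugt-13, passed it.

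This placing of L3 replicate 3 was counted among the 36 members above the control range whose lethargus mean was at least 0.5 from the mean of L3 replicates 1 and 2. L3 replicate 3 lay nearer to the lethargus mean in 18 of the 22 that were higher in lethargus (81.8%) and in 7 of the 14 that were lower (50.0%). Over all genes chosen the same way it did so in 596 of 929 higher (64.2%) and 552 of 786 lower (70.2%). The genes share the arrays, so these shares describe this array and carry no test.

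**Figure D4:**
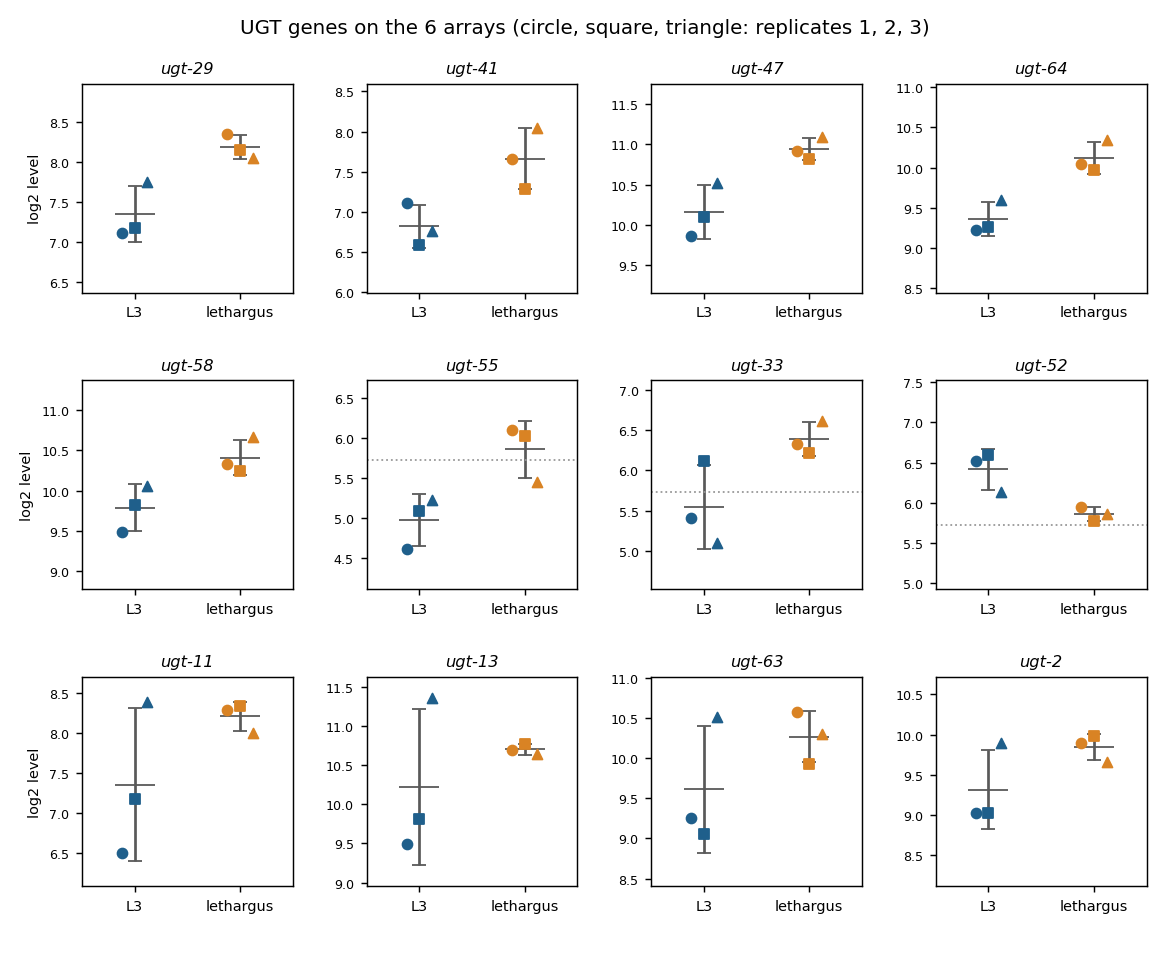
Each panel plots the log2 level of 1 UGT gene on the 6 arrays with the mean and 1 SD, and the dotted line marks the highest control value, 5.73, where it falls in the panel; axes differ and do not start at 0. In the bottom row (ugt-11, ugt-13, ugt-63 and ugt-2) the triangle of L3 replicate 3 lies within or above the lethargus arrays and away from the other L3 arrays.

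Many genes of both families have neighbours of the same class. In the RefSeq gene order of WBcel235, 82 of the 138 members (59.4%) are on chromosome V, which holds 25.3% of the 17079 measured genes placed on a chromosome. Chromosome IV holds 19 members, II and X 13 each, I 6 and III 5. Adjacency was counted among protein-coding genes and genes of these families only, so non-coding genes and other pseudogenes between neighbours were skipped. There are 22 runs of 2 or more such adjacent genes of the same class, with 66 measured members, while the other 72 lie alone. The longest, of 8 genes, runs from cyp-13A2 to cyp-13A8 on chromosome II. Only cyp-13A2 of its 7 measured genes was above the control range.

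Changes differed within these runs. In the run of cyp-34A5 to cyp-34A10 on chromosome V the changes were, in order, -0.12, 0.22, 0.95, 0.42, -0.61 and 0.13, so that the called cyp-34A7 and the next gene were higher and cyp-34A9 after them was lower. The other called gene, cyp-34A1, lies elsewhere on V beside cyp-34A2 (changes 1.07 and 0.81, the second not called). The 7 genes from ugt-11 to ugt-13 on chromosome V ran from -0.74 for ugt-8 to 0.85 for ugt-11. The adjacent ugt-43 and ugt-44 on chromosome IV had changes of 1.08 and 0.80, neither called, with ugt-43 within the control range. In the run of cyp-35A5, cyp-35B1, cyp-35B2 and cyp-35B3 the last 3 were within the control range, with changes between -0.08 and -0.02. Neighbours in these families can be similar in sequence, and cross-hybridisation between them was not tested.

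**Figure D5:**
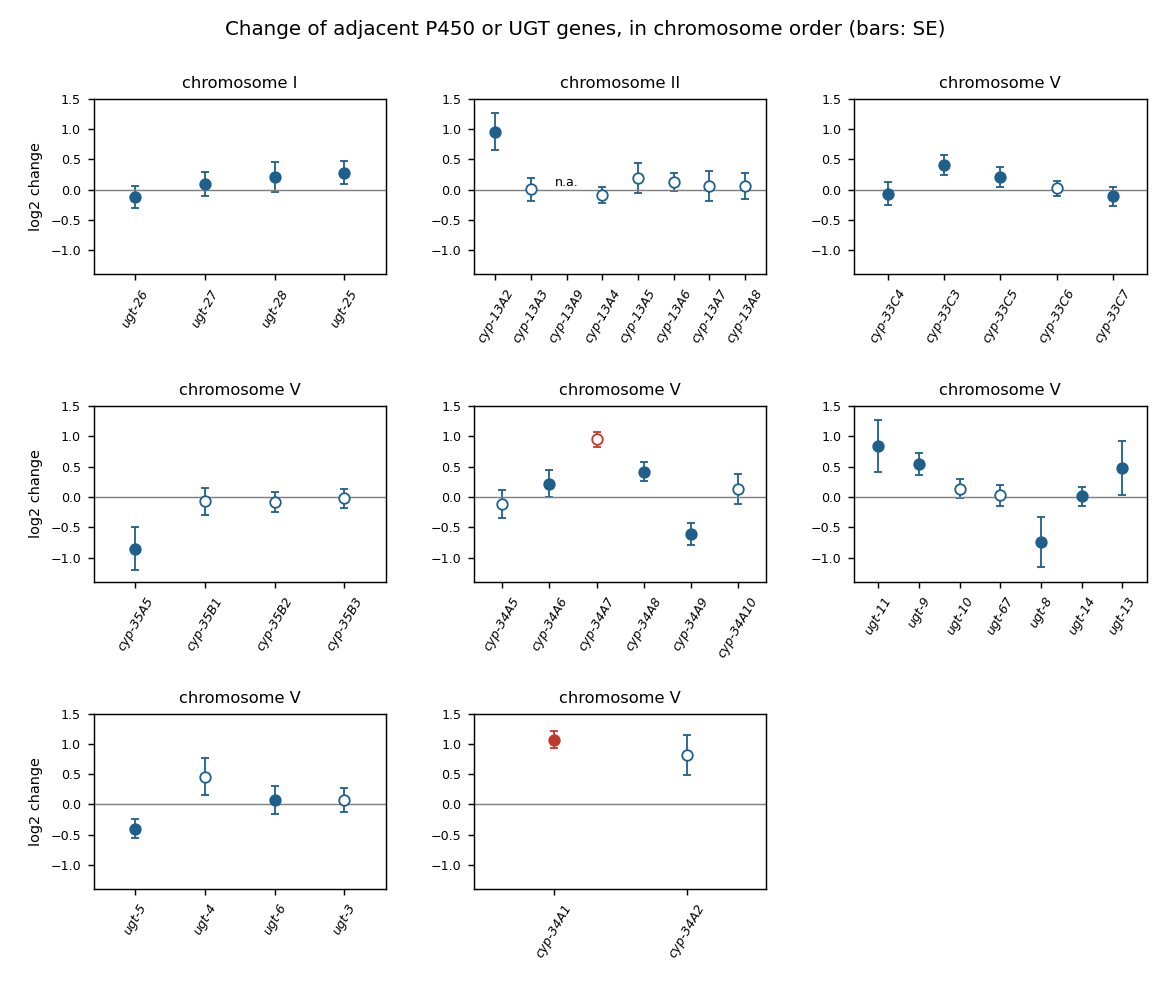
The log2 change (lethargus minus L3, bars of 1 SE) is plotted for 8 runs of adjacent P450 or UGT genes in chromosome order; open circles are within the control range, red marks called genes, and n.a. marks a gene without a value of its own. In the cyp-34A5 to cyp-34A10 run the values go from 0.95 to -0.61 within 3 neighbours.

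Of the members 8 had several probe sets, and none of these was called on any. The probe sets of cyp-13B1, cyp-23A1, cyp-35C1 and ugt-46 differed by at most 0.09 in change. Those of ugt-48 did not share a direction, at 0.01 and -0.29 (adjusted p = 0.996 and 0.425 by limma). Probe sets that match several genes were left out of the members: one shared by cyp-13A12 and cyp-13A11 had a change of -0.29 (adjusted p = 0.939), one shared by cyp-25A5 and cyp-25A4 a change of 0.15 (adjusted p = 0.891), and one shared by ugt-22 and Y43D4A.2 a change of -0.15 (adjusted p = 0.932).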

How the data were processed

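RNA of whole larvae was amplified with the Nugen Ovation system and hybridised to 6 Affymetrix arrays, per the labels' protocols. The deposited table holds log2 expression values that the authors made with RMA, per the submitters' processing notes. The RMA version was not given in the sources used here. Amplification and cross-hybridisation can change levels, so levels of different probe sets are not compared. Values were used as deposited. Of 22625 probe sets, 77 controls were left out. The groups were compared two-sided with limma 3.58.1 (R 4.3.3; lmFit and eBayes with no term besides group) and Benjamini-Hochberg adjustment over 22548 probe sets. The script was tested on simulated data. The design text names R/maanova, which was not run here. Precision is limited by having 3 arrays a group. The array annotation gave 1 gene for 20766 probe sets, several for 887 and none for 895. All 138 members matched RefSeq by gene identifier.

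The members, the gene lists and the rule for named genes were chosen with earlier results of these data known. Named genes are the called members, up to 12 of the largest changes in each direction among members without overlap whose brighter mean was above the controls, a list of members named whatever their values, and, of each pathway list, called genes or the gene with the smallest p and 7 further genes (daf-36, daf-12, hsd-1, dhs-16, strm-1, emb-8 and nhr-8). Pathway and marker lists are described by counts, with no set test. Besides those given in the report, the germline, pharynx and neuron marker lists had no called gene and median changes of 0.18, 0.25 and -0.09. Results were recomputed under 14 alternatives: quantile normalization repeated, arrays set to a common median, the dimmest 25% of probe sets left out, the mean of a gene's probe sets, leaving out probe sets marked as matching related genes, a variance trend with robust fitting, array weights, a replicate block, and leaving out each array in turn.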

Additional observations from a re-analysis of the deposited data

How the results depend on the processing

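On the 6 arrays 2 members were called higher and none lower (10 were lower at an unadjusted p under 0.05). The count of members called higher was 1 with the dimmest 25% of probe sets left out, which removes cyp-34A7, 4 with array weights, 0 with the replicate block, and 0 to 12 with each array left out. The count called lower was 1 with array weights and 0 to 3 with each array left out. Over all probe sets, 170 were called higher on the 6 arrays, 262 with array weights, 56 with the replicate block and 75 to 573 with each array left out. The count lower was 48, and 77 with a variance trend and robust fitting, 231 with array weights, 3 with the replicate block and 0 to 563 with each array left out. In each case the highest count was that without L3 replicate 3. Of the pathway lists, 1 gene was called higher, and 0 with a common median, with the marked probe sets left out (which removes sqv-1) or with the replicate block, and 0 to 3 with each array left out. The count lower was 0, and 0 to 1 with each array left out. Causes were not tested except where the setting itself removes a gene. Over 48 named genes and 657 combinations of gene and setting, 625 stayed called or stayed uncalled, 19 lost the call and 13 gained one. Most of the 625 were combinations of genes never called, which had no call to lose. All 19 losses fell on the called genes cyp-34A1, cyp-34A7 and sqv-1. Both cyp-34A1 and cyp-34A7 lost the call with the replicate block and without each array other than L3 replicate 3. The count of calls that reversed direction was 0. Small changes of some uncalled genes did switch sign. That of cyp-29A3, for example, was -0.07 on the 6 arrays and 0.13 without L3-lethargus replicate 1. The labels do not say whether a replicate number marks a shared day or batch. Deviations from the group means of same-numbered arrays correlated at 0.26, -0.24 and -0.29, and only replicate 1 correlated best with its own number. With 1 pair of arrays per number, these values cannot decide whether same-numbered pools were handled together. Signal over background limits the 43 members with both means within the control range, whose changes background can understate.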
